A study of Rattus norvegicus with 30 samples.

Results

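The Gpc5 gene body was described here as a stretch of rat chromosome 15 that begins at one differentially methylated region (DMR) and ends at another, both of which the study lists for this gene and annotates as intronic. Peaks of methylated DNA from 30 libraries were merged where they overlapped by at least 1 bp, and every merged region with a called peak in 2 or more libraries that overlapped chr15:100484348-100800000 (Rn6) was kept. This gave 49 regions of the 432103 autosomal regions that met the same minimum. A further 26 merged regions of the span were called in only 1 library, so that 75 were found in all. Because the last region runs past the limit, the stretch described ends at 100800585 and is 316.2 kb long. The values that chose the members were the peak calls themselves. The ends of the span were chosen from group differences in these same animals, so the 2 listed sites are described without a test and only the other 47 regions were tested between groups.

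Gpc5 encodes glypican 5, a heparan sulphate proteoglycan held at the outer face of the cell membrane by a lipid anchor. Glypicans carry sugar chains that bind growth factors and morphogens, and so tune how strongly a cell responds to signals such as hedgehog, Wnt and fibroblast growth factors. In the brain, members of this family are found on neurons and glia and take part in growth of axons and formation of synapses. In the RefSeq annotation of a later assembly (GRCr8), Gpc5 lies between a cluster of miRNA genes that runs from Mir17 to Mir92a1 and Gpc6, another glypican gene. Methylated DNA immunoprecipitation (meDIP-seq) pulls down fragments that carry 5-methylcytosine, so a peak marks a stretch whose methylated fragments pile up above the local level. It gives enrichment, not the percent of methylated molecules, and within genes methylation is common along transcribed introns and exons.

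The prefrontal cortex (PFC) of 30 Sprague-Dawley rats was taken at postnatal day 22, with 10 animals in each prenatal group. Dams of the prenatal alcohol exposed group (PAE) received a liquid diet with 36% of its calories from ethanol (6.37% v/v), dams of the pair-fed group (PF) received a liquid control diet in the restricted amounts that PAE dams ate, with maltose-dextrin in place of ethanol, and dams of the control group (CON) ate pelleted control diet freely. The diets were given during gestation, and no animal carried an introduced allele. Each group held 5 animals labelled female and 5 labelled male from 5 litters, with 1 of each labelled sex per litter, and the 15 dams are the units of treatment. Liquid diet was shared by PAE and PF dams and not by CON dams, so PAE against PF is the contrast matched for diet form and intake. The files hold methylation peaks only, so the labelled tissue was not checked against marker genes. The 5 sequencing chips named in the labels did not hold the groups evenly, since no PF library was on UEX000295 and no PAE library was on UEX000298.

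Depth lay between 11548314 and 16555049 fragments after filtering, and the libraries held 103898 to 208631 autosomal peaks. Peaks on the sex chromosomes went against many of the labels. In 23 libraries 0.774% to 1.15% of peaks were on chromosome X and 38 to 87 peaks were on chromosome Y, and in the other 7 libraries the shares were 2.65% to 3.14% with 4 to 11 peaks on chromosome Y. The larger set held 13 of the 15 libraries labelled female, and the smaller set held 5 labelled male. Labelled sex and these peaks fitted each other in 12 libraries, of which 3 were CON, 3 PF and 6 PAE. In 5 litters the pair was reversed, in 2 it was as labelled, and in 8 both littermates were in the larger set. Results by labelled sex are therefore given as labels only, and differences between groups are also given for the 12 fitting libraries. The sex chromosome peaks give no check of the group and litter labels, on which all group differences rest. Whether those labels are also in error was not tested.

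The 49 regions of the span held 468 peaks, always 1 per region and library. None of the regions was called in all 30 libraries. Over the autosomes, 2.76% of regions were called in all 30. The members spread along a continuum from 10 regions called in 20 or more libraries, termed recurrent regions below, through 18 called in 4 to 19, to 21 called in only 2 or 3. The recurrent regions held 252 of the 468 peaks, or 53.8%. The 49 members ran from 274 to 1050 bp in length (median 492 bp), and together covered 8.09% of the span. The gaps between neighbours ran from 235 bp to 21398 bp.

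**Figure D1:**
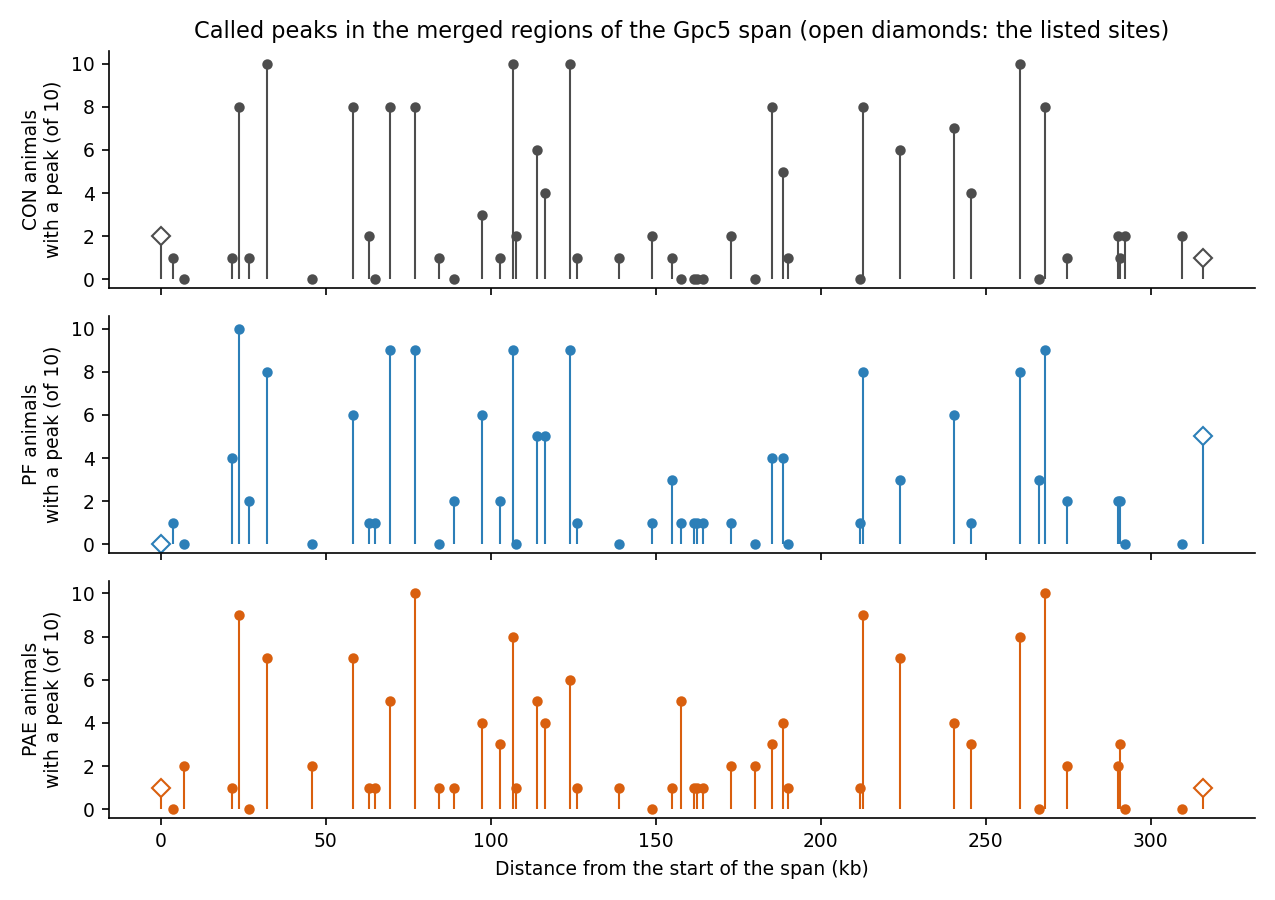
Number of animals of 10 with a called peak (y axis) in each of the 49 merged regions, by distance in kb from the start of the span (x axis), in CON, PF and PAE animals, with open diamonds for the listed sites. Most tall lines stand at the same positions in all 3 groups. The line of the region that starts at 184.7 kb reaches 8 in CON, 4 in PF and 3 in PAE animals. The diamond at the far end reaches 5 in PF animals and 1 in each other group.

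The values compared between animals are normalized heights, the pileup of fragments at the summit of a peak per 1000000 filtered fragments. The peak lists do not hold coverage under the calling threshold, so animals without a peak, or with one below 0.438, were set to a floor of 0.438, the lowest height that every library could have called. A median at the floor therefore means that most animals had no call above it, and not that DNA methylation (DNAm) was absent.

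The tallest region of the span was chr15:100696867-100697355, 212.5 kb from its start and 489 bp long. Its called animals numbered 8 in CON, 8 in PF and 9 in PAE. Its normalized height ran from the floor to 1.97 in CON animals with a median of 1.27, from the floor to 1.79 in PF animals with a median of 1.17, and from the floor to 1.97 in PAE animals with a median of 1.39. Each group held both uncalled and high animals, so that the groups overlapped over nearly their whole range. Its summits fell within 38 bp of each other over 25 libraries (SD 9.03 bp), the tightest of the recurrent regions. Its highest peak stood 11.1-fold above the background that MACS2 estimated.

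A further 4 regions completed the 5 with the highest median height. The region chr15:100607948-100608549 was called in all 10 CON animals, in 9 PF and in 6 PAE animals. Its medians were 0.873, 0.876 and 0.770, and CON animals lay between 0.716 and 1.13 while PF and PAE animals reached from the floor to 1.28 and 1.51. The lower number of PAE calls thus went with a group range that still held the highest animal. The region chr15:100507596-100508389, 23.2 kb from the start, had calls in 8 CON, 10 PF and 9 PAE animals, with medians of 0.752, 0.876 and 0.842. Its highest animals were at 1.69 in CON and 1.59 in PF but at 0.960 in PAE. At chr15:100553665-100554255 the called animals numbered 8 in CON, 9 in PF and 5 in PAE, and the medians were 0.835, 0.752 and 0.511. The PAE animals still reached 1.16, against 1.22 in CON and 1.42 in PF.

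The fifth, chr15:100744320-100745358, was 1039 bp long and had calls in 10 CON, 8 PF and 8 PAE animals. CON animals lay between 0.582 and 1.20 (median 0.858), PF animals between the floor and 1.03 (median 0.721) and PAE animals between the floor and 1.24 (median 0.597). Its summits were spread over 556 bp (SD 201 bp), the widest of the recurrent regions, so that the tallest point of the peak was not at one place in all animals. The median summit SD of the 10 recurrent regions was 43.6 bp. The other recurrent regions were chr15:100542229-100542766, described with the group differences, and 4 that are named here after their values were seen, at 100516160, 100561087, 100590835 and 100752034. These 4 were called in 25 to 27 libraries, with group medians between 0.558 and 0.803.

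**Figure D2:**
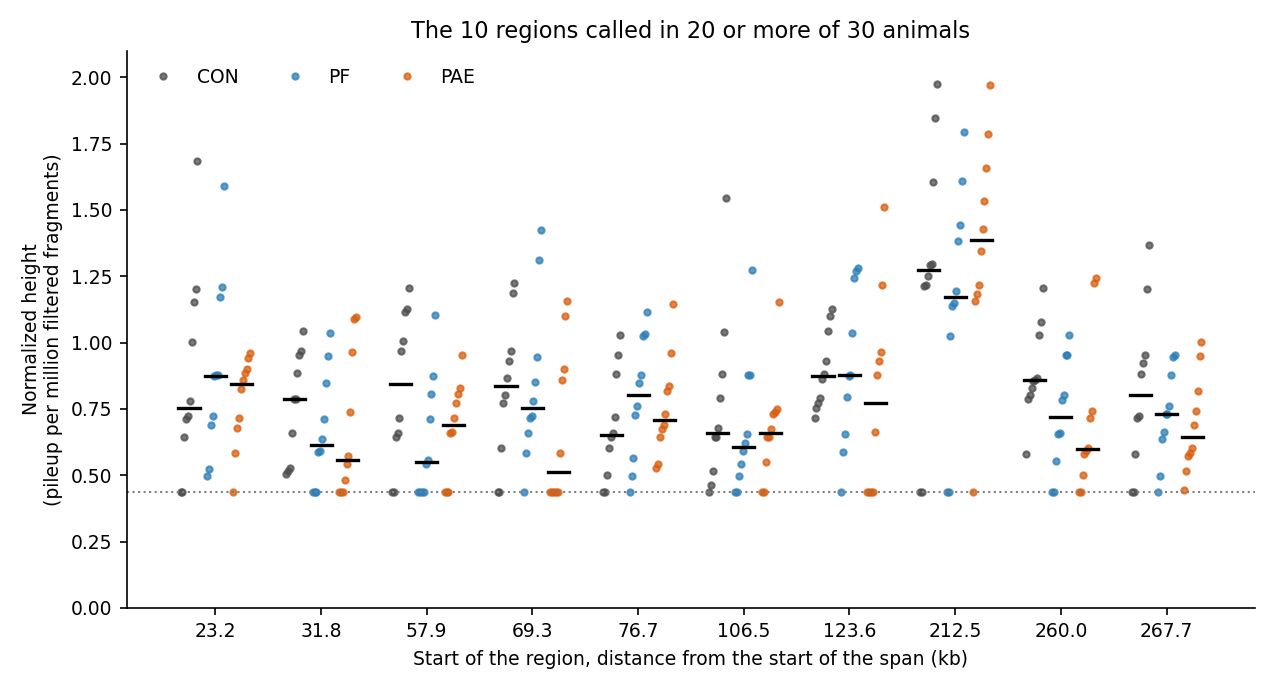
Normalized height (y axis, pileup per 1000000 filtered fragments) of each animal at the 10 recurrent regions, ordered by distance from the start of the span (x axis, kb), with 10 points per group, a black bar at each group median and the floor as a dotted line. The region at 212.5 kb stands highest in all 3 groups, with medians of 1.27, 1.17 and 1.39.

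Recurrent regions were longer than the other members, with medians of 604.5 bp against 452 bp, and their called peaks were taller, with median heights of 0.841 against 0.642. A merged region spans all of its peaks, so its length can grow with the number of libraries called. Taller peaks also pass the calling threshold more readily, so neither difference is separate from how recurrence was defined. Height and recurrence did not always go together. The region chr15:100645736-100646121, named after its values were seen, was called in only 2 animals, at 1.91 in PAE replicate 2 and at 1.43 in PF replicate 4, and the former was the tallest peak outside the recurrent regions. Both libraries were on chip UEX000299, and all other animals had no called peak there.

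The first listed site, chr15:100484348-100484637 (290 bp), was called in 3 animals. CON replicate 4 had a height of 0.601 and CON replicate 9 a height of 0.562, and both came from 1 litter. PAE replicate 1 had a height of 0.377, below the floor, and no PF animal had a called peak. The pileups behind these peaks were 7, 7 and 5 fragments, so the site was at the limit of what the libraries could call. The nearest member after it, chr15:100487950-100488259, was called in CON replicate 2 at 0.360 and in PF replicate 6 at 0.439. No member lies before it, and the next merged region called in 2 or more libraries outside the span, 5798 bp away, had calls in 8 CON, 7 PF and 4 PAE animals.

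The second listed site, chr15:100799536-100800585, was the longest member (1050 bp) and was called in 5 PF animals, 1 CON animal and 1 PAE animal. PF replicates 10, 6, 9, 4 and 8 had heights of 0.878, 0.806, 0.604, 0.557 and 0.427, CON replicate 10 had 0.452 and PAE replicate 3 had 0.429. The 4 highest values were thus all in PF animals, while 5 PF animals had no peak and 1 PF peak was below the floor. Pileups ran from 6 to 12 fragments. The summits of PF replicates 6, 8, 9 and 10 and of PAE replicate 3 fell between 100800259 and 100800301, that of CON replicate 10 at 100800077, and that of PF replicate 4 at 100799627, so the merged region joins peaks that were not all at one place. Of the 5 PF animals called, 4 were labelled male, they came from 4 litters and 4 sequencing chips, and 2 of the 5 were among the libraries whose sex chromosome peaks fitted the label. No test of group was made at the listed sites, because they were selected on group differences in these animals.

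The neighbour before this site, chr15:100793548-100793821, was called only in CON replicates 3 and 7, at 0.376 and 0.395, both below the floor. The next merged region after the span that was called in at least 2 libraries lay 3035 bp on and was called in 1 PF and 1 PAE animal. Over the 30 libraries, the member whose log2 height was most like that of the first listed site was chr15:100598032-100598471 (Pearson r = 0.58), itself with calls in 6 CON, 5 PF and 5 PAE animals. For the second listed site it was chr15:100487950-100488259 (r = 0.59). Only 2 libraries in the first pair and 1 in the second had a called peak in both regions, and most points shared the floor, so these values describe few animals.

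**Figure D3:**
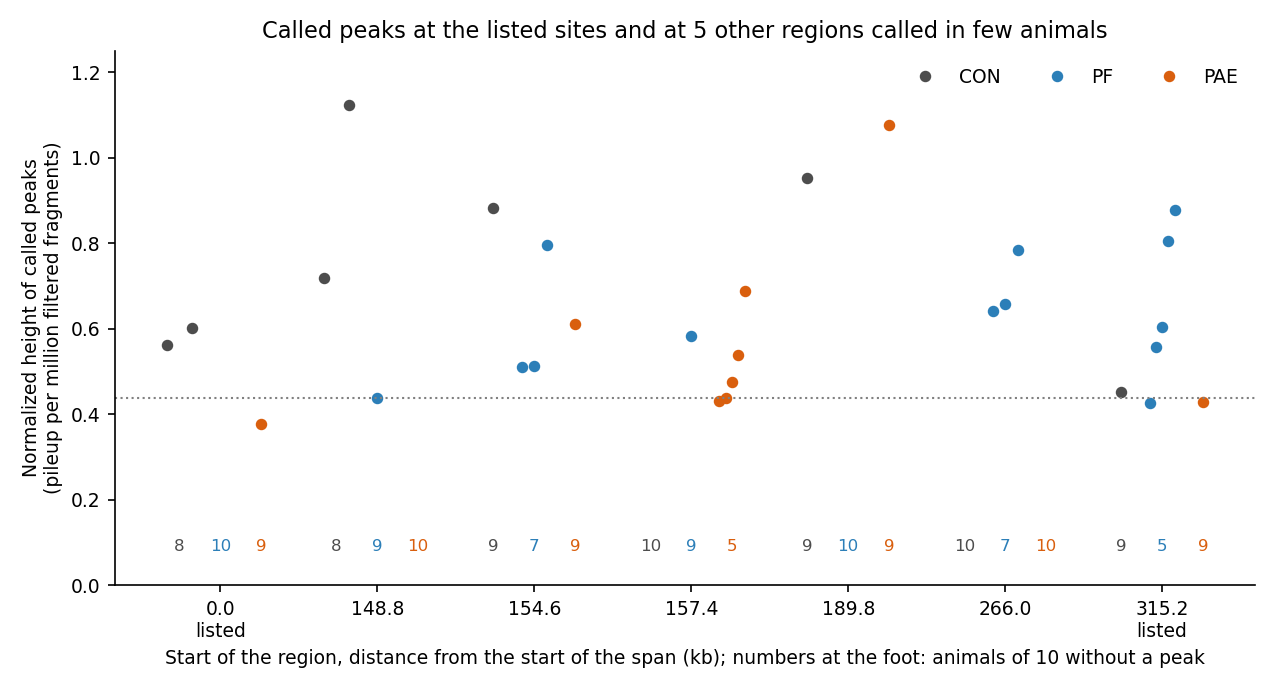
Normalized height (y axis, pileup per 1000000 filtered fragments) of each called peak at the listed sites and at 5 other regions called in few animals, by distance from the start of the span (x axis, kb), with the number of animals of 10 without a peak at the foot of each column and the floor as a dotted line. PF animals hold the 4 highest points at the second listed site and all 3 points at 266.0 kb.

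To ask whether the 47 other regions differed between the prenatal groups, log2 heights were fitted with limma over all 432103 regions with terms for group, labelled sex and sequencing chip, with Benjamini-Hochberg adjustment over all of them. Bulk tissue was measured, so fewer methylated cells and less methylation per cell cannot be told apart. At an adjusted p of 0.05, no region of the span differed in any of the 3 contrasts, and the share of all regions called was 0% for PF against CON, 0% for PAE against PF and 0.000231% (1 region) for PAE against CON. The smallest adjusted p-values (limma) among the 47 were 0.766, 0.964 and 0.715 in the same order. At an unadjusted p of 0.05, 2 of the 47 passed for PF against CON, where 5.9% of all regions did, 1 passed for PAE against PF (4.18% of all regions) and 2 passed for PAE against CON (6.67% of all regions). The members' counts are close to these shares, and in no contrast was the share of members the larger one.

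Directions were mixed along the span. For PF against CON, 22 of the 47 regions were higher and 24 lower, for PAE against PF 20 and 26, and for PAE against CON 20 and 26, with 1 region at the floor in every animal. Over all regions the shares lower were 56.9%, 55.5% and 62.1%. After quantile normalization these shares were 50.8%, 51.3% and 52.7%, and the members split 26 to 20, 24 to 22 and 23 to 23. That normalization sets every library to one distribution, so a lean over all regions shrinks with it. The median log2 difference of the 47 regions was close to 0 in each contrast (-0.0013, -0.004 and -0.007).

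**Figure D4:**
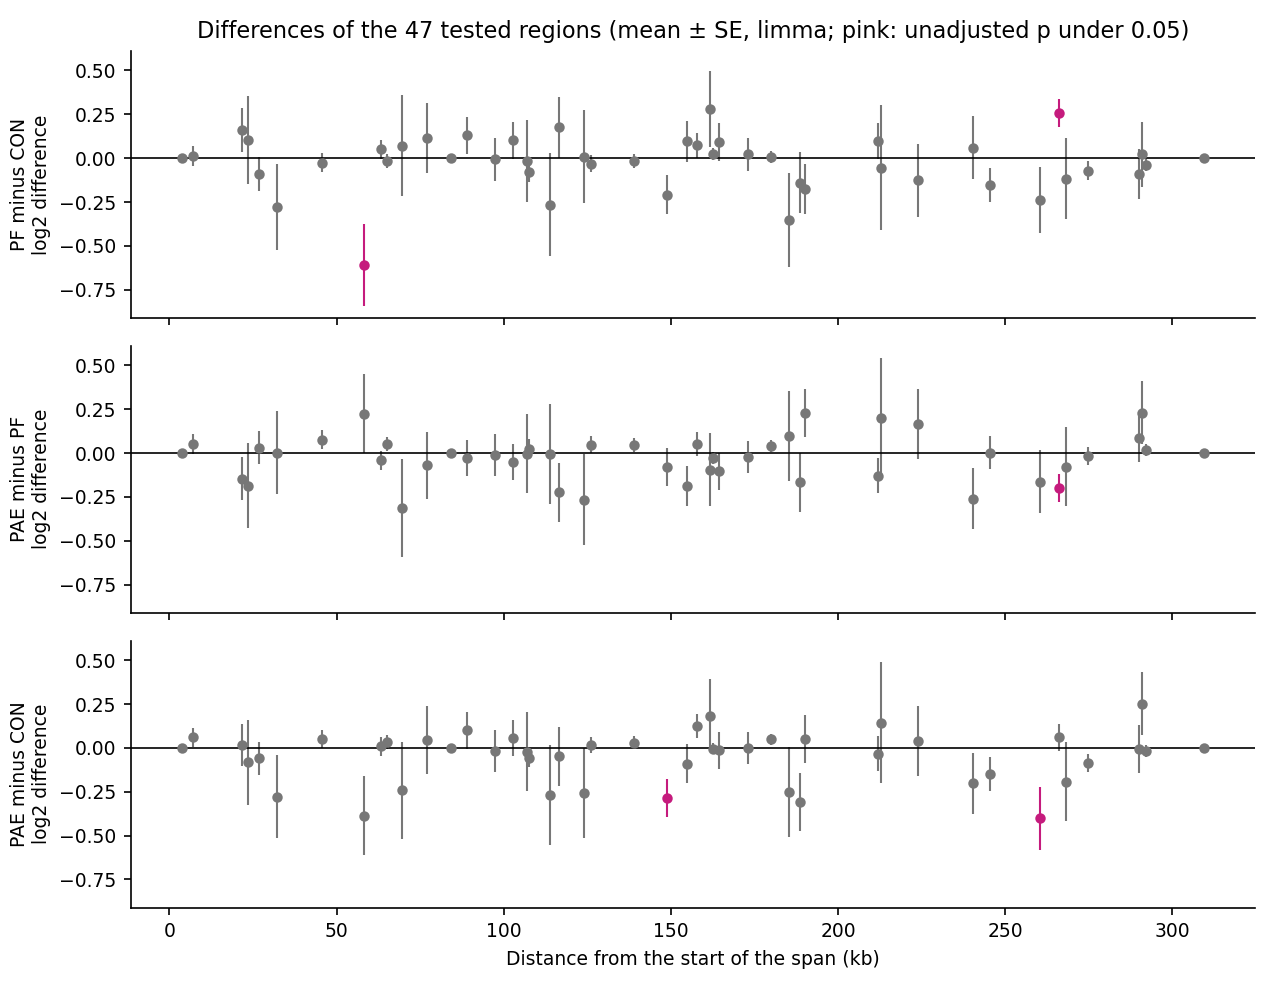
Log2 difference in normalized height (y axis, mean ± SE from limma) of the 47 tested regions by distance from the start of the span (x axis, kb) for PF minus CON, PAE minus PF and PAE minus CON, with regions at an unadjusted p under 0.05 in pink. Points scatter on both sides of 0 along the whole span, and the 2, 1 and 2 pink points do not stand next to each other.

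The member with the smallest p for PF against CON, chr15:100750392-100750715 (324 bp, 266.0 kb from the start), was called only in PF animals, and so met the minimum of 2 libraries only through the group where it was high, which favours the tests of PF at this region. PF replicate 9 had a height of 0.785, PF replicate 10 a height of 0.659 and PF replicate 8 a height of 0.641, and the other 27 animals had no called peak. The summits lay at 100750508, 100750565 and 100750569. On the log2 scale of floored heights PF animals were 0.26 ± 0.08 (SE) above CON animals (limma, unadjusted p = 0.00435, adjusted p = 0.766), and the difference of PAE from PF animals was -0.20 ± 0.08 (unadjusted p = 0.0198, adjusted p = 0.964). These 2 contrasts share the PF animals. The 3 animals were labelled male, and 2 of them, PF replicates 9 and 10, were among the libraries that fitted their label. The same 3 animals also had a called peak at the second listed site. Without PF replicate 9 the difference of PAE from PF was -0.11. In the fitting libraries the differences were 0.48 for PF from CON and -0.48 for PAE from PF. PF animals lay higher than CON animals on 2 of the 4 chips with both groups and were equal to them on the other 2. PAE animals lay lower than PF animals on 1 of the 3 chips with both groups, that of PF replicate 9, and were equal to them on the other 2. PF replicates 8 and 10 were both on UEX000298, which held no PAE library.

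The second member by p for PF against CON was the recurrent region chr15:100542229-100542766, with calls in 8 CON, 6 PF and 7 PAE animals. Medians were 0.843 in CON, 0.550 in PF and 0.690 in PAE animals, and each group reached from the floor to 0.953 or above. The log2 difference of PF from CON animals was -0.61 ± 0.23 (SE; limma, unadjusted p = 0.0147, adjusted p = 0.766). It was negative on all 4 chips that held both groups, from -0.98 to -0.0042. Without the chip term the difference was -0.38 ± 0.22, which no longer passed an unadjusted p of 0.05. In the 12 libraries that fitted their label it was -0.76. The third, chr15:100633111-100633474, was called in CON replicates 9 and 2 at 1.12 and 0.720 and in PF replicate 7 at 0.437, below the floor. Both CON libraries were on chip UEX000299. The region met the minimum of 2 libraries only through CON animals, where it was high, which favours its tests against CON. The difference of PF from CON was -0.21 ± 0.11 (limma, unadjusted p = 0.0762, adjusted p = 0.766), and -0.10 without CON replicate 9. It was -0.12 and -0.10 after median ratio scaling and quantile normalization, and -0.45 in the fitting libraries. PF animals lay lower than CON animals on only 1 of the 4 chips with both groups and were equal to them on the other 3.

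That same region, which met the minimum only through CON animals, had the smallest p for PAE against CON. No PAE animal was called, and the log2 difference was -0.29 ± 0.11 (SE) (limma, unadjusted p = 0.0139, adjusted p = 0.715). Without CON replicate 9 the difference was -0.13. It was -0.17 and -0.15 after median ratio scaling and quantile normalization, and -0.45 in the fitting libraries. PAE animals lay lower than CON animals on only 1 of the 4 chips with both groups and were equal to them on the other 3. Next was the long recurrent region at 100744320, where PAE animals differed from CON animals by -0.40 ± 0.18 (limma, unadjusted p = 0.0349, adjusted p = 0.727). The difference was negative on 3 of the 4 chips with both groups. It was -0.52 in the fitting libraries and -0.14 when peaks had to cover 50% of the region. The third was chr15:100641796-100642384, called in 5 PAE animals, 1 PF animal and no CON animal. This region met the minimum of 2 libraries only through PAE animals, which favours the tests of PAE there. PAE replicates 4, 5, 8, 7 and 10 had heights of 0.687, 0.538, 0.475, 0.438 and 0.430 and PF replicate 7 a height of 0.583 against the floor of 0.438. PAE animals were 0.13 ± 0.07 higher than CON animals (limma, unadjusted p = 0.0759, adjusted p = 0.727), and 0.04 higher without PAE replicate 4. It was 0.02 in the fitting libraries, 0.25 after quantile normalization and 0 when peaks had to cover 50% of the region.

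For PAE against PF, the regions after the one at 100750392 were chr15:100674183-100674545 and chr15:100638978-100639344. The former was called in CON replicate 1 at 0.953 and in PAE replicate 5 at 1.08, and PAE animals were 0.23 ± 0.14 (SE) higher than PF animals (limma, unadjusted p = 0.108, adjusted p = 0.964). The difference was 0.13 without the chip term, and 0 in the fitting libraries, where no animal had a called peak. The latter was called in PF replicates 4, 3 and 7 at 0.795, 0.512 and 0.510, in CON replicate 9 at 0.883 and in PAE replicate 8 at 0.611. The difference of PAE from PF was -0.19 ± 0.11 (limma, unadjusted p = 0.111, adjusted p = 0.964). This direction turned in the 12 libraries that fitted their label (0.08), and without PF replicate 4 the difference was -0.09. It was -0.08, -0.09 and -0.07 without the chip term, after median ratio scaling and after quantile normalization. None of these differences passed the threshold after adjustment over all regions, so none is taken as a difference between the groups.

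Whether the group difference changed with labelled sex was fitted as an interaction. No region of the span or of the genome passed an adjusted p of 0.05 in any contrast (limma). At an unadjusted p of 0.05, 2 of the 47 members passed for PF against CON (4.81% of all regions), 3 for PAE against PF (2.98% of all regions) and 0 for PAE against CON (4.86% of all regions). The region at 100750392, with its peaks in PF animals alone, was in both of the first sets. Its log2 difference of PAE from PF changed by -0.38 ± 0.14 (SE) from animals labelled female to those labelled male (limma, unadjusted p = 0.00968, adjusted p = 1), and that of PF from CON by 0.34 ± 0.14 (unadjusted p = 0.0265, adjusted p = 0.942). The others, named after their values were seen, were 100724266 and 100581327 for PAE against PF and 100776242 for PF against CON. The last was called only in 2 CON animals and met the minimum only through them. At chr15:100724266-100724917 a peak was called in 4 animals labelled female and none labelled male among PAE animals, and in 2 labelled female and 4 labelled male among PF animals. Since the labels and sex chromosome peaks fitted each other in only 12 libraries, these values compare labels and not sexes.

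The calls were spread over the groups in near equal numbers. CON animals had 159 member peaks, PF animals 157 and PAE animals 152, which is 32.4%, 32.0% and 31.0% of the places where a member and an animal could meet. Among the 47 tested regions, more PF than CON animals were called at 20 and fewer at 20, more PAE than CON animals at 19 and fewer at 18, and more PAE than PF animals at 17 and fewer at 16. Over all regions with unequal numbers, the shares called in fewer animals were 54.6%, 59.8% and 55.4% in the same order. At the recurrent regions the largest difference in called animals was 2 between PF and CON and 4 between PAE and each other group. Larger differences from CON were found among the other members. The region at 100669076, named after its values were seen, had a peak in 8 CON animals but in only 4 PF and 3 PAE. At 100641796, 5 PAE animals and 1 PF animal had a peak, and no CON animal did. The sizes of such differences were not set beside those over all regions, so they are not read as a trait of the span. Neither of the next 2 counts is set beside a share over all regions, so neither is read as a trait of the span. Each group was represented at 28 of the 49 members, and 6 members were called in 1 group alone. Beside the region at 100750392 these were 3 regions with 2 PAE animals each, at 100491195, 100529840 and 100664007, and 2 regions with 2 CON animals each, at 100776242 and 100793548, all named after their values were seen. PAE replicates 2 and 3, both on chip UEX000299, supplied both peaks at 100491195 and at 100664007. At the latter their summits lay 338 bp apart.

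Between animals of one group the number of members called varied more than between groups. CON animals had 11 to 21 members called (median 16), PF animals 10 to 19 (median 16) and PAE animals 8 to 19 (median 15.5). The sum of called heights over the 49 regions was 13.1 ± 3.29 in CON, 12.2 ± 2.83 in PF and 11.5 ± 2.56 in PAE animals (SD, n = 10 each), with 151576 ± 26759, 143998 ± 19297 and 135828 ± 26494 autosomal peaks in the same libraries. The 5 libraries with the fewest autosomal peaks had 8 to 16 members called and the 5 with the most had 15 to 21, so the number of Gpc5 regions called moved with the number of peaks in the whole library, and the part of that number in the group values was not tested. Per 10000 autosomal peaks the medians were 1.05 members in CON, 1.08 in PF and 1.20 in PAE animals, in the reverse order of the peak numbers.

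**Figure D5:**
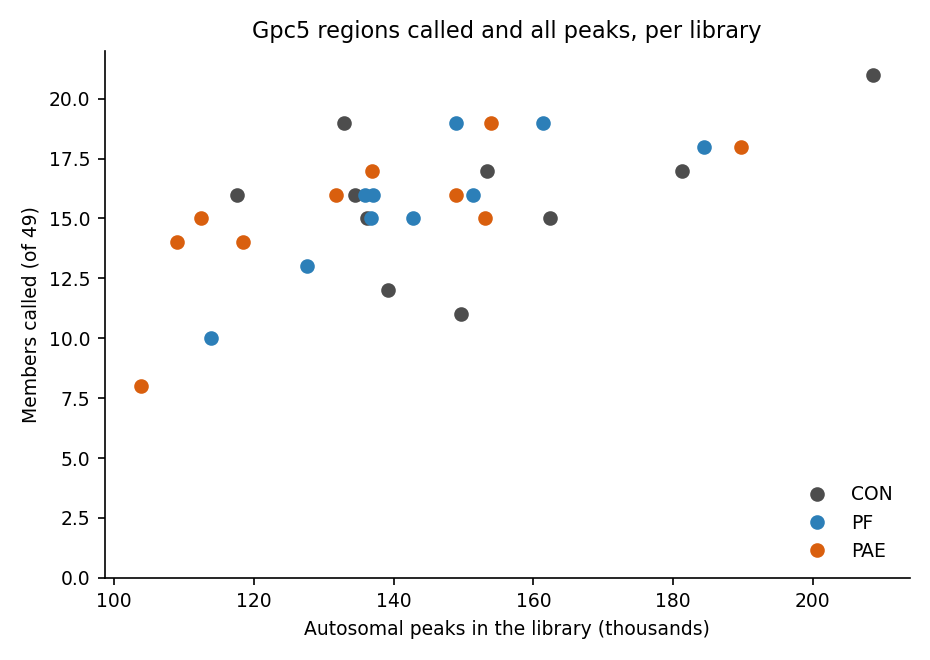
Members called of 49 (y axis) against autosomal peaks in the library (x axis, plotted as units of 1000) for each of the 30 libraries, in the colour of its group. Libraries with few peaks reach down to 8 members and those with the most reach 21, and the 3 groups overlap along both axes.

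Cut into 6 windows of equal length, the span held 6 to 10 members per window. The third window, 105.4 to 158.1 kb from the start, had the most, and the fourth, up to 210.8 kb, held 8 members of which none was recurrent. Peaks called per animal had medians of 2 in CON, 1.5 in PF and 1.5 in PAE animals in the fourth window, and of 4, 3 and 3 in the fifth, which holds the tallest region. The last window, which ends at the second listed site, had medians of 2, 2 and 1.5. Ranges overlapped between the groups in all 6 windows.

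Set beside its surroundings, the span had 15.5 merged regions called in at least 2 libraries per 100 kb, against 18.3 in the stretch of the same length before it, 14.5 in the one after it, 16.2 on chromosome 15 and 16.5 on the autosomes. A larger share of its regions was called in 25 or more libraries, at 16.3% (8 of 49), against 5.17% and 4.35% in the flanking stretches and 8.79% on the autosomes. At the limit of 20 libraries that defines recurrent regions, it was 20.4% (10 of 49). The flanking stretches then had 15.5% and 8.70%, chromosome 15 had 14.8% and the autosomes 15.1%. At the other end, 42.9% were called in only 2 or 3 libraries, against 36.2%, 41.3% and 30.5%. The median number of libraries with a call was 5 per region here and 6 on the autosomes. These shares are descriptions of 49 regions that lie in one locus and share the same libraries, and no test was made of them. Both end sites are annotated as intronic, so Gpc5 runs on past the span by a length not derived here. The flanking stretches can therefore hold parts of the same gene, and are not a comparison of Gpc5 with other genes.

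The minimum of 2 libraries sets the edge of the membership. The 14 members called in just 2 libraries had called heights from 0.358 to 1.91 with a median of 0.491, and the 26 regions left out with 1 library had heights from 0.366 to 1.04 with a median of 0.516. Of the peaks in the former, 8 came from CON, 6 from PF and 14 from PAE libraries, with some animals counted at several regions, and of those in the latter 9, 8 and 9. The same split over all autosomal regions called in 2 libraries was not derived, so these numbers are not read as an excess in PAE animals.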

How the data were processed

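The members of the span and the lists of regions were chosen with earlier results of these data known. The authors aligned paired reads to Rn6, removed duplicates and fragments with a mapping quality under 10, and called peaks in each library with MACS2 (no control, q-value 0.05). Version 2.1.4 stands in the submitters' file headers. The deposited signal is the pileup at each summit, unscaled. The −log10 q-value, also deposited, served a stricter threshold, and the deposited fold enrichment (a ratio to the local background) only as a description. Rows of one peak were joined at the highest pileup, and peaks were merged with Python 3.11.15, numpy 2.4.6 and pandas 2.3.3. Heights, scaled to 1000000 filtered fragments from the headers and floored at 0.438, were fitted on the log2 scale with limma 3.58.1 (trended prior variance) in R 4.3.3, and the fit was tested on simulated data. The simulation placed large changes only at regions called in most libraries, so it does not cover regions called in few animals or small differences. Figures used matplotlib 3.10.9. Regions named in the text were the listed sites, the 5 members with the highest median, any member called in all 30 libraries (there was none), the 3 members with the smallest p per contrast, the longest member, and the neighbours and most alike members of the listed sites, and others are marked as named after their values were seen. Alternatives were no chip term, no labelled sex term, each library's own floor, a pseudocount of 0.1 on 0-filled heights, regions called in at least 3 libraries or in 1, a q-value limit of 0.01, a peak cover of at least 50% of the region, median ratio scaling, quantile normalization, a litter effect, Fisher's exact test of called animals, each library left out in turn and, chosen after seeing the data, the 12 libraries whose sex chromosome peaks fitted the label, with group as the only term. Reads were not used here, and precision is limited by pileups of few fragments.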

Additional observations from a re-analysis of the deposited data

Results flagged for a closer look

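Among the PAE libraries, 1 stood apart in the number of Gpc5 regions called. PAE replicate 8 had 8 of the 49 members called, while the nearest other PAE library had 14. It also had the fewest autosomal peaks of all libraries (103898). It was the only extreme value in 29 groups of values examined, and chance alone flags about 5% of groups.

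Peaks on the sex chromosomes, which lie outside the regions compared and served only to choose the 12 fitting libraries, put 13 libraries labelled female in the larger set with few chromosome X peaks and 38 to 87 chromosome Y peaks. At the second listed site 2 of the 7 called animals were among libraries that fitted their label, and at the first 2 of 3.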

How the results depend on the processing

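No member passed an adjusted p of 0.05 under any alternative or without any library. No paired analysis was possible because litters lie within prenatal groups and the replicate numbers, given in accession order, pair no animals across groups. Over all regions, the 1 region called for PAE against CON fell to 0 with no chip term, a pseudocount of 0.1, no filter, 50% cover, median ratio scaling, quantile normalization and Fisher's exact test. In the 12 libraries that fitted their label the fits called 19 regions for PF against CON, 34 for PAE against PF and 43 for PAE against CON, and the cause was not tested. Members at an unadjusted p of 0.05 for PF against CON numbered 1 with no chip term, 0 with Fisher's test and 3 with each library's own floor. For PAE against PF they were 2 with the pseudocount or quantile normalization and 0 with Fisher's test. For PAE against CON they were 0 with no chip term and 3 with the pseudocount. They were 1 with each library's own floor, quantile normalization, Fisher's test or the fitting libraries. The log2 difference at 100638978 for PAE against PF turned to 0.080 in the fitting libraries. With the pseudocount, which sets uncalled animals further below called ones, the 9 named log2 differences widened to between -1.47 and 1.37. Leaving out each library in turn gave 2 to 4, 1 to 2 and 1 to 4 such members for PF against CON, PAE against PF and PAE against CON, and 0, 0 and 0 to 1 regions at the adjusted threshold. For PF against CON the count was 4 without CON replicate 10. For PAE against PF it was 2 without PAE replicate 2, PAE replicate 8 or PF replicate 10. For PAE against CON it was 4 without CON replicate 2 and 1 without CON replicates 3, 5 or 7 or PAE replicates 3 or 8. The litter correlation was -0.02. With pileups of 5 to 12 fragments at the listed sites, small differences could not be seen there.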
